A study of Mus musculus with 2 samples.

Results

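The 6 GATA transcription factor genes of the mouse, Gata1, Gata2, Gata3, Gata4, Gata5 and Gata6, were taken by symbol from the 32285 genes of a single-nucleus data set, together with every accessibility peak within 50 kb of their starts. Of 229480 peaks, 9 lay at a GATA promoter and 120 were distal. Nuclei came from pooled mouse embryos at embryonic day 7.0 (E7.0), the stage of gastrulation, which were dissociated with TrypLE before nuclei were isolated. Nuclear RNA and accessible chromatin, the DNA that a transposase can cut, were read from the same nuclei with 10x Genomics chemistry, giving 2 samples, 1 library per assay. There was no treated, mutant or second-stage group. The labels were at odds: title, age and protocol gave E7.0 embryos, whereas other fields gave small intestine and distal colon as tissue, goblet cells as cell type and RedMUC298trTg as strain. Summed RNA of 8 goblet and intestinal markers was between 0 and 5.52 CPM (counts scaled to 1e6 per class; UMIs, unique molecules, for RNA) in every class and unnamed cluster of nuclei. No embryo could be told apart, so there was no replicate, no test was possible, and intervals (95%) cover counting error only.

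GATA factors are zinc finger proteins that bind the DNA sequence GATA and its flanking bases. GATA1 is the master regulator of red cell and megakaryocyte genes, GATA2 acts in blood stem and progenitor cells and in trophoblast giant cells, and GATA3 is best known in T helper cells and in trophoblast. GATA4, GATA5 and GATA6 form a second branch, needed in endoderm, heart and yolk sac. GATA6 is an early determinant of primitive endoderm, and GATA4 follows it there.

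The start regions of 4 of the genes were matched in RefSeq (GRCm38.p6). The 250 bases ahead of the start are shown because these promoters behaved differently across the embryo: that of Gata1 was weak in every class of nuclei, those of Gata2 and Gata3 were open in every class, and that of Gata5 was low in trophoblast-like classes. Capitals mark CpG sites, the CG dinucleotides at which DNA can be methylated. Coordinates, written 1-based, are chrX:7967911-7968160 on the minus strand for Gata1 and chr6:88193641-88193890 on the plus strand for Gata2. They are chr2:9878601-9878850 on the minus strand for Gata3 and chr2:180334680-180334929 on the minus strand for Gata5.
Gata1: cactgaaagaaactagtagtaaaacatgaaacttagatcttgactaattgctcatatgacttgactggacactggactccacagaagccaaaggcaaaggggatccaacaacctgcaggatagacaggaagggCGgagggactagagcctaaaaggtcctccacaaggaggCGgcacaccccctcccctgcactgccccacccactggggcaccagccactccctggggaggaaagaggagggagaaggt
Gata2: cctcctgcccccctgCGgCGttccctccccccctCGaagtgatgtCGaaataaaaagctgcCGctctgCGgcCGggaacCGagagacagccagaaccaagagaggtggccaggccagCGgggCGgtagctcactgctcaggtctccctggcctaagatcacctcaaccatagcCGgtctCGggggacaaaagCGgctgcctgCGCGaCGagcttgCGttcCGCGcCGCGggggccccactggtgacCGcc
Gata3: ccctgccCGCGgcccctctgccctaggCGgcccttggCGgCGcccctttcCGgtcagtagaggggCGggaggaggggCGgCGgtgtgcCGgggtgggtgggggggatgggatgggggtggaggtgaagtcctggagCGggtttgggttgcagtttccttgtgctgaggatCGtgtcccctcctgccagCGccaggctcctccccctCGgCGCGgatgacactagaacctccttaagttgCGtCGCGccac
Gata5: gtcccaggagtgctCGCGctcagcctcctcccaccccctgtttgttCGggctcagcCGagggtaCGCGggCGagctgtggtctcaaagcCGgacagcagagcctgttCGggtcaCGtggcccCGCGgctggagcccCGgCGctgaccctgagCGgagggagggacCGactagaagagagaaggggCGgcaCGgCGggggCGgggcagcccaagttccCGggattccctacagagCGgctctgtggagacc
The Gata1 stretch held 2 CpG sites at 54% GC, fewer than the median of 6 over all 32851 RefSeq promoters. Those of Gata2, Gata3 and Gata5 held 22, 19 and 22 CpG sites at 67.2%, 70% and 70% GC, against a median GC of 52.4%. A further RefSeq stretch of Gata2, chr6:88198414-88198663, held 24 CpG sites. RefSeq starts differ in part from those in the deposited gene table: this stretch lies behind the last Gata2 start of that table, and the Gata5 stretch overlaps the Gata5 start given there. None of these 5 stretches held a GATA motif, searched on both strands as AGATAA and as AGATAG, or with T in place of the first base as TGATAA and as TGATAG (the motifs overlap in GATA), and 26.5% of all promoter stretches of that length held at least 1. Gata4 and Gata6 were not matched there.

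After filtering, 12796 nuclei remained, with medians of 10471 UMIs and 17350 peak counts. RNA levels are given in classes built from accessibility (with the peaks near GATA genes left out), and accessibility in classes built from RNA (with GATA genes and their neighbours left out), so that no value grouped the nuclei it describes. Class names come from markers that include no GATA gene. Accessibility gave 10 named classes: epiblast-like (3356 nuclei), visceral endoderm-like (1513), extraembryonic ectoderm-like (1436), anterior streak-like, which covers node and definitive endoderm (1044), primitive streak-like (949), embryonic mesoderm-like (832), extraembryonic mesoderm-like (537), haemato-endothelial-like (361), ectoplacental cone-like, which includes giant cells (183), and parietal endoderm-like (31). A further 5 clusters with 2554 nuclei stayed unnamed. Levels are CPM of a class's UMIs or peak counts. A fold is a class over all other kept nuclei, and a gene was called higher at a fold of at least 2 with at least 20 UMIs in all. UMI counts are not scaled by length, so levels are compared between classes and not between genes. In sums over nuclei, fewer expressing nuclei and less RNA per nucleus cannot be told apart, so the share of nuclei with a UMI is given beside them.

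Of the 6 genes, 5 had enough UMIs for a call. Gata1, Gata2 and Gata3 were called in the ectoplacental cone-like class (3 of 6, where 8.48% of 19877 genes were), and Gata1 and Gata3 in the extraembryonic ectoderm-like class (2, against 7.63%). Gata2 and Gata3 were called in the haemato-endothelial-like class (2, against 8.47%). Gata4 and Gata6 were called in the embryonic mesoderm-like (2, against 7.80%), extraembryonic mesoderm-like (2, against 8.24%) and parietal endoderm-like classes (2, against 9.86%). Gata4 alone was called in the visceral endoderm-like class (1, against 10.2%) and Gata6 alone in the anterior streak-like class (1, against 6.63%). None of the 6 was called in the epiblast-like class (9.66% of genes were) or the primitive streak-like class (4.23%). An unnamed cluster of 566 nuclei led by Mesp2 and Cdh20 held more summed primitive streak marker RNA than that class (1526.9 against 1139.7 CPM). It also held 1170.45 CPM of summed embryonic mesoderm marker RNA, against 1253.58 in the embryonic mesoderm-like and 129.5 in the primitive streak-like class. In this cluster Gata6 passed the call at 183.1 CPM, or 2.35-fold (2.22 to 2.50), with Gata4 at 163.1 CPM. Gata1, Gata2 and Gata3 thus shared calls in ectoplacental cone-like nuclei, and Gata4 and Gata6 in mesoderm-like and parietal endoderm-like nuclei. Over the 20 accessibility clusters, which share 1 library, log2(CPM + 1) of Gata4 and Gata6 had a Pearson coefficient of 0.880, Gata2 and Gata3 0.696, Gata1 and Gata3 0.601, and Gata1 and Gata2 0.466.

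**Figure D1:**
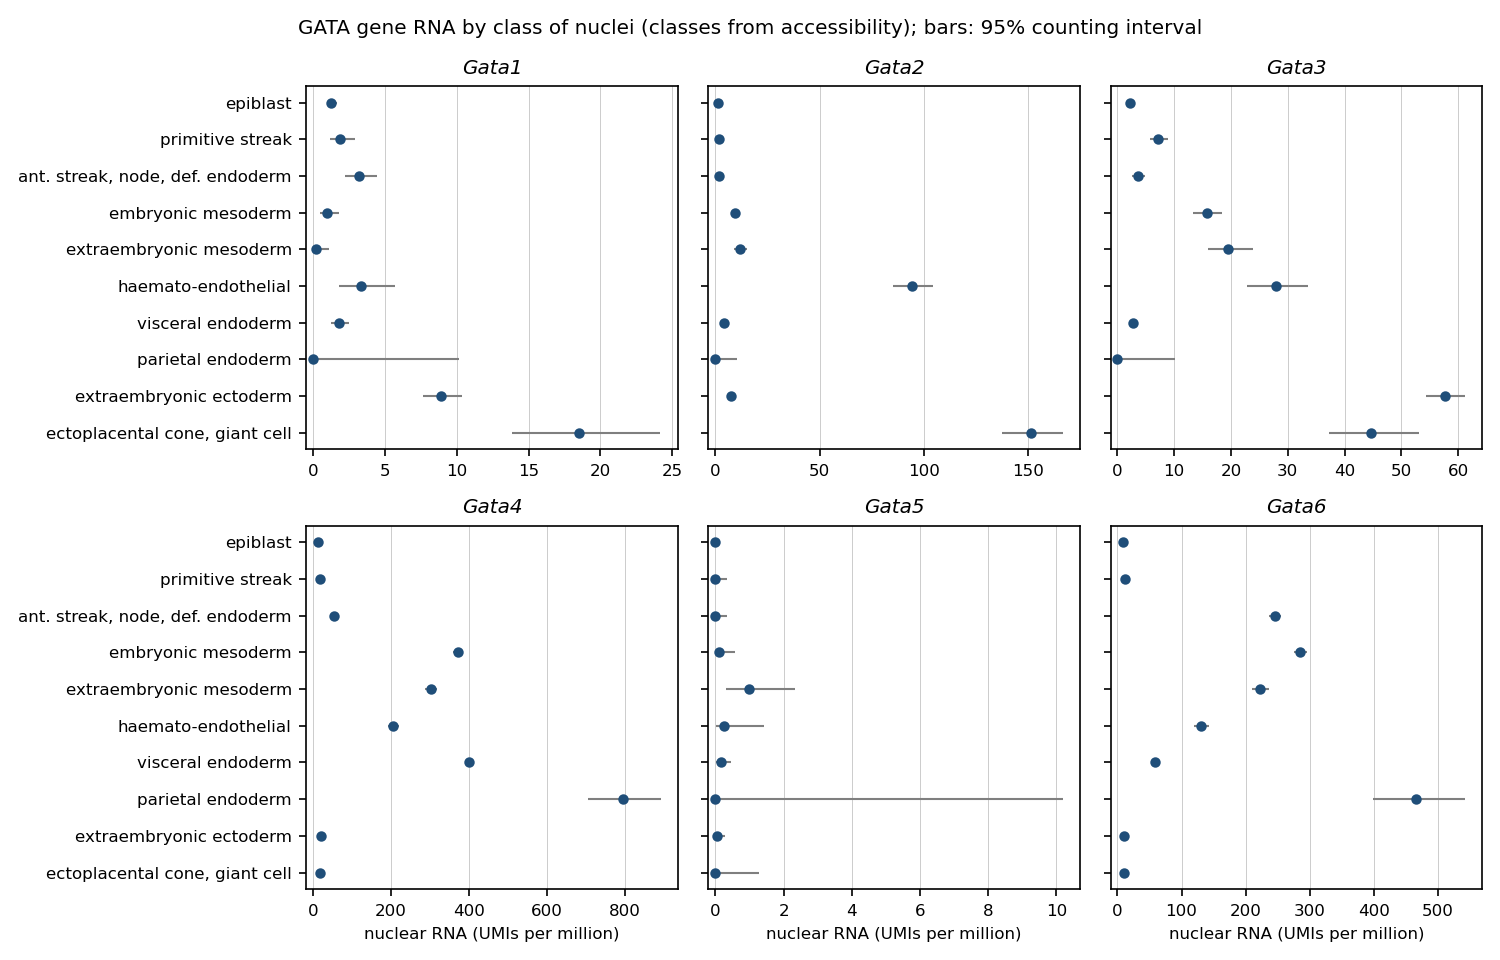
Nuclear RNA (CPM, horizontal axis, its own range in each panel) of each GATA gene in the 10 named classes; points are class sums and lines 95% counting intervals. Gata1 and Gata3 are high in both trophoblast-like classes, Gata2 in ectoplacental cone-like and haemato-endothelial-like nuclei, and Gata4 and Gata6 in parietal endoderm-like and both mesoderm-like classes, with Gata4 also high in visceral endoderm-like and Gata6 in anterior streak-like nuclei. Gata5 has 18 UMIs in all.

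Gata1 (ENSMUSG00000031162; chromosome X, start 7967910) had 504 UMIs in 414 nuclei. Its level was 18.5 CPM (13.9 to 24.2) in ectoplacental cone-like nuclei, 8.91 in extraembryonic ectoderm-like, 3.32 in haemato-endothelial-like, 3.21 in anterior streak-like, 1.89 in primitive streak-like, 1.79 in visceral endoderm-like, 1.26 in epiblast-like, 0.95 in embryonic mesoderm-like and 0.199 in extraembryonic mesoderm-like nuclei (1 UMI). No UMI was seen in the parietal endoderm-like class, which allows up to 8.28 CPM. Both trophoblast-like classes stood above the other named classes, at 5.86-fold (4.32 to 7.80) and 3.40-fold (2.81 to 4.10). The ratio between them was 2.08 (1.5 to 2.84). From the haemato-endothelial-like class downwards, no class differed from the next beyond counting error. Classes further apart could differ: anterior streak-like (2.24 to 4.47 CPM) and epiblast-like nuclei (0.922 to 1.68 CPM) had intervals that did not overlap. Ectoplacental cone-like nuclei exceeded haemato-endothelial-like ones by 5.57-fold (2.99 to 11.1). In the RNA-based classes haemato-endothelial-like nuclei held 1.91 CPM of Gata1, below anterior streak-like nuclei at 4.39.

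In ectoplacental cone-like nuclei (median 12787 UMIs) 19.1% held a Gata1 UMI, against 1.28% of epiblast-like nuclei (median 10173), a class that should lack the gene. Nuclei with at least 4000 UMIs were also thinned to that depth and the others left out (179 of 183 and 3186 of 3356 stayed). The shares were then 7.82% and 0.471%. All 322 globin UMIs of this class, a mark of red cells, lay in 2 nuclei. Leaving these out, an alternative chosen after seeing the data, gave a Gata1 level of 18.8 CPM. These 2 nuclei held none of the class's 53 Gata1 UMIs. An unnamed cluster of 454 nuclei led by Fzd5, Gckr, Foxq1, Hkdc1 and Sfrp5 also held Gata1 RNA. Its level was 11.6 CPM, or 3.81-fold (2.95 to 4.85) over all others, above the 8.91 CPM of extraembryonic ectoderm-like nuclei.

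Gata2 (ENSMUSG00000015053; chromosome 6, starts from 88193891 to 88198334) had 1407 UMIs in 827 nuclei and 2 separate high classes. It stood at 151.5 CPM in ectoplacental cone-like and 94.3 in haemato-endothelial-like nuclei. Below them came extraembryonic mesoderm-like (11.6), embryonic mesoderm-like (9.18), extraembryonic ectoderm-like (7.57), visceral endoderm-like (4.09), anterior streak-like (1.65), primitive streak-like (1.53) and epiblast-like nuclei (1.37), and no UMI in parietal endoderm-like nuclei. The 2 high classes were 22.2-fold (19.8 to 24.9) and 12.9-fold (11.4 to 14.5) over all others, and each stood far above its neighbouring lineage. Ectoplacental cone-like exceeded extraembryonic ectoderm-like nuclei 20.01-fold (16.6 to 24.3), and haemato-endothelial-like exceeded extraembryonic mesoderm-like nuclei 8.16-fold (6.17 to 11.0). The share of nuclei with a Gata2 UMI was 62.3% and 54.3% in the 2 high classes and 1.40% in epiblast-like nuclei. Thinned, these were 34.1%, 30.5% and 0.471%. The ectoplacental cone-like fold was 13.1 with depth limits of 2000 UMIs and 2000 peak counts. In the RNA-based classes Gata2 in haemato-endothelial-like nuclei stood at 56.9 CPM, or 7.96-fold.

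Gata3 (ENSMUSG00000015619; chromosome 2, start 9878600) had 2045 UMIs in 1263 nuclei and a graded pattern. It was highest in extraembryonic ectoderm-like nuclei at 57.7 CPM, followed by ectoplacental cone-like (44.7), haemato-endothelial-like (27.9), extraembryonic mesoderm-like (19.5) and embryonic mesoderm-like nuclei (15.7). Lower levels were found in primitive streak-like (7.21), anterior streak-like (3.58), visceral endoderm-like (2.76) and epiblast-like nuclei (2.22). Folds were 7.87 (7.21 to 8.60), 3.33 (2.76 to 3.98) and 2.04 (1.67 to 2.47) in the first 3 classes. Primitive streak-like nuclei, which form next to the epiblast, held 3.25-fold (2.36 to 4.49) the Gata3 of epiblast-like nuclei. The last 3 of these classes did not differ from one neighbour to the next. The first and last of them, anterior streak-like (2.55 to 4.89 CPM) and epiblast-like nuclei (1.76 to 2.76 CPM), were not compared directly. In the RNA-based classes primitive streak-like nuclei held 14.2 CPM of Gata3 and epiblast-like nuclei 2.68. Within the trophoblast lineage the order of Gata2 and Gata3 was therefore opposite: the ratio of ectoplacental cone-like to extraembryonic ectoderm-like nuclei was 20.01 for Gata2 and 0.774 (0.640 to 0.931) for Gata3. Of summed extraembryonic ectoderm marker RNA, ectoplacental cone-like nuclei held 975.8 CPM and extraembryonic ectoderm-like nuclei 814.2. Of summed ectoplacental cone and giant cell marker RNA they held 1123.7 and 50.1 CPM. A Gata3 UMI was held by 44.6% of extraembryonic ectoderm-like and 2.15% of epiblast-like nuclei.

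Gata4 (ENSMUSG00000021944; chromosome 14, starts from 63213607 to 63245271) had 22258 UMIs in 5236 nuclei. It was highest in parietal endoderm-like nuclei at 794.8 CPM (705.7 to 892.2; 288 UMIs), then visceral endoderm-like (399.3), embryonic mesoderm-like (370.8), extraembryonic mesoderm-like (301.6) and haemato-endothelial-like nuclei (205.2). Anterior streak-like nuclei held 53.9, extraembryonic ectoderm-like 18.6, ectoplacental cone-like 16.8, primitive streak-like 16.5 and epiblast-like nuclei 12.6. The fold was 5.26 (4.66 to 5.91) in parietal endoderm-like, 3.49 (3.39 to 3.58) in visceral endoderm-like, 2.69 (2.60 to 2.79) in embryonic mesoderm-like and 2.05 (1.94 to 2.16) in extraembryonic mesoderm-like nuclei. The 5 high classes differed from one another beyond counting error, though visceral endoderm-like exceeded embryonic mesoderm-like nuclei by only 1.08-fold (1.03 to 1.12). Against epiblast-like nuclei, embryonic mesoderm-like nuclei held 29.4-fold (26.7 to 32.5) and primitive streak-like nuclei 1.31-fold (1.1 to 1.56) the Gata4. In the RNA-based classes primitive streak-like nuclei held 28.1 CPM of Gata4 against 12.96 in epiblast-like nuclei, and ectoplacental cone-like nuclei held 8.92. An unnamed cluster of 583 nuclei led by Scube2, Epas1 and Pitx1 held 491.3 CPM of Gata4.

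Gata6 (ENSMUSG00000005836; chromosome 18, start 11052470) had 12025 UMIs in 4229 nuclei. Its levels were 466.4 CPM in parietal endoderm-like, 285.6 in embryonic mesoderm-like, 246.4 in anterior streak-like, 222.7 in extraembryonic mesoderm-like and 130.9 in haemato-endothelial-like nuclei. Visceral endoderm-like nuclei held 59.3, primitive streak-like 12.3, ectoplacental cone-like 10.8, extraembryonic ectoderm-like 9.53 and epiblast-like 8.46. Folds were 5.72 (4.88 to 6.65), 4.17 (4.0 to 4.36), 3.56 (3.40 to 3.71) and 2.87 (2.70 to 3.05) in the first 4 classes. The last 4 classes did not differ from one neighbour to the next in these accessibility-based classes, but primitive streak-like nuclei, the first of them, exceeded epiblast-like nuclei, the last, by 1.46-fold (1.19 to 1.79). In the RNA-based classes primitive streak-like nuclei held 43.6 CPM of Gata6 (39.5 to 48.0) against 8.69 in epiblast-like and 6.52 in ectoplacental cone-like nuclei. There the order at the top also turned, with anterior streak-like nuclei at 317.3 CPM above embryonic mesoderm-like nuclei at 271.3.

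Gata4 and Gata6 parted between the named classes of the 2 endoderm lineages that meet at this stage. Visceral endoderm-like nuclei held 7.41-fold (6.81 to 8.07) the Gata4 of anterior streak-like nuclei, whereas anterior streak-like nuclei held 4.15-fold (3.88 to 4.45) the Gata6 of visceral endoderm-like nuclei. The share with a Gata4 UMI was 89.2% and 30.6% in these classes, and with a Gata6 UMI 44.6% and 55.1%, at median depths of 12085 and 9757 UMIs. Thinned to 4000 UMIs, the shares were 73.7% and 17.0% for Gata4 and 19.9% and 41.3% for Gata6, against 4.80% and 3.17% in epiblast-like nuclei. Parietal endoderm-like nuclei were high in both. Outside the named classes, summed visceral endoderm marker RNA was 9039.3 CPM in the Scube2, Epas1 and Pitx1 cluster, against 15304.9 in visceral endoderm-like nuclei. That cluster held 491.3 CPM of Gata4 and 107.5 of Gata6. The Fzd5 and Sfrp5 cluster held 4975.7 CPM of these markers and 682.1 of the anterior streak, node and definitive endoderm markers. Its Gata4 stood at 119.4 CPM and its Gata6 at 96.9.

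The anterior streak-like class mixes node and definitive endoderm, and its Gata6 RNA was uneven. With markers chosen after seeing the data, 538 nuclei held a UMI of Sox17, Cer1 or Hhex and none of Noto, Foxj1 or Shh. These endoderm-marked nuclei held 385.4 CPM of Gata6 (369.8 to 401.5) and 77.3 of Gata4. The 133 nuclei with a UMI of a node marker (Noto, Foxj1 or Shh) and none of the endoderm markers held 13.9 CPM of Gata6 (8.37 to 21.7) and 8.78 of Gata4. The 2 sets had median depths of 10448.5 and 9751 UMIs, and their Gata6 intervals did not overlap. The 127 nuclei with both kinds of marker (127.1 CPM) and the 246 with neither (82.5 CPM) lay between.

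At the level of single nuclei thinned to 4000 UMIs, Gata6 was found in 66.3% of anterior streak-like nuclei with a Gata4 UMI and in 36.2% of those without. In visceral endoderm-like nuclei these shares were 19.9% and 19.7%, and in embryonic mesoderm-like nuclei 63.6% and 58.2%. Of these 3 classes, the anterior streak-like one had the widest gap. In haemato-endothelial-like nuclei the shares were 44.8% and 27.7%. Gata2 and Gata4 UMIs were both present in 44 of 338 thinned haemato-endothelial-like nuclei. There, Gata4 was found in 42.7% of nuclei with Gata2 and 51.5% of those without.

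Gata5 (ENSMUSG00000015627; chromosome 2, start 180334699) had only 18 UMIs in 16 nuclei and fell short of the 20 UMIs needed for a call. Of these, 5 were in extraembryonic mesoderm-like nuclei (0.997 CPM, 0.324 to 2.33), 3 in visceral endoderm-like and 1 each in embryonic mesoderm-like, extraembryonic ectoderm-like and haemato-endothelial-like nuclei. The other 7 lay in unnamed clusters, at most 3 in any of them. None was seen in epiblast-like nuclei, which allows up to 0.0821 CPM. In the RNA-based classes, however, 3 lay in epiblast-like, 5 in haemato-endothelial-like, 4 in embryonic mesoderm-like, 3 in visceral endoderm-like and 1 in extraembryonic ectoderm-like nuclei. For Gata5 no class differed from the next in order beyond counting error.

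The strand used in counting is not given in the sources used here, so reads from antisense neighbours cannot be told apart. The neighbour 1010001N08Rik overlaps the Gata6 start and had 1000 UMIs, with its highest levels in parietal endoderm-like (60.7 CPM) and embryonic mesoderm-like nuclei (36.2). It was also the gene most like Gata6 over the 20 clusters (Pearson 0.980 among 12306 genes). Next to Gata3, 4930412O13Rik had 67 UMIs, of which 24 were in haemato-endothelial-like and 1 in extraembryonic ectoderm-like nuclei. Gata5os had 1 UMI.

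Other genes were ranked by the likeness of their pattern to each GATA gene over the same clusters, as a description. Nearest to Gata1 were Krt19 (0.895), which encodes an epithelial keratin, Mrps25 (0.880), Dnaja1 (0.875), Dag1 (0.866) and Ttll12 (0.862). For Gata2 they were Vgll4 (0.883), 4921524J17Rik (0.872), Drosha (0.869), C430049B03Rik (0.862) and Pecam1 (0.835), an endothelial adhesion molecule. For Gata3 they were Rbm20 (0.914), Ppp1r18 (0.891), Prdx3 (0.879), Anxa3 (0.877) and Rabepk (0.872). Nearest to Gata4 were P3h2 (0.973), a collagen prolyl hydroxylase, Lpp (0.921), Susd6 (0.901), Usp47 (0.897) and Prdm6 (0.896). After its neighbour, Gata6 was most like Usp47 (0.916), Fgf10 (0.891), Nrip1 (0.886) and Phf2 (0.885). Gata5, with 18 UMIs, gave Msx2 (0.732), Spin2c (0.721), Zfp637 (0.712), Mesp1 (0.690) and Nrbp1 (0.688).

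Genes that act with GATA factors were counted in 5 lists, many of whose members also mark the classes and so are not independent of their names. Of 12 trophoblast genes acting with GATA2 and GATA3, 8 were called higher in ectoplacental cone-like nuclei (8.48% of all genes were), with a median log2 fold of 2.46 against -0.19 over all genes. The highest was Prl2c2, a prolactin-family hormone of giant cells (14.3 against 0.0280 CPM on 41 and 4 UMIs), and the lowest Eomes, a stem cell factor, at 0.236-fold (0.191 to 0.288). In extraembryonic ectoderm-like nuclei 7 of 12 were higher (7.63% of all genes; median 1.26 against -0.15), from Esrrb at 39.6-fold (36.1 to 43.4) down to Plac1 at 0.215-fold (0.176 to 0.262). The genes at the ends of the list differed between the trophoblast-like classes. Of this list, Ascl2, Plac1, Prl3d1 and Prl2c2 are markers that helped to name the ectoplacental cone-like class. Elf5, Cdx2, Tfap2c and Esrrb did so for the extraembryonic ectoderm-like class. The counts in these classes were thus fixed in part by the naming.

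Of 14 endoderm genes downstream of or acting with GATA4 and GATA6, 9 were higher in visceral endoderm-like nuclei (10.2% of all genes, median 2.16 against -0.17). In parietal endoderm-like nuclei 7 were (9.86%, median 0.94 against -0.35). Of this list, Afp, Ttr, Hnf4a, Amn and Cubn are markers of the visceral endoderm-like class. Lama1, Col4a1 and Sparc are markers of the parietal endoderm-like class. In the parietal endoderm-like class Lama1, a basement membrane laminin and a marker of the class, was 125.1-fold higher (120.2 to 130.3), and Afp, alpha-fetoprotein, was lowest at 0.110-fold (0.0358 to 0.257) on 5 UMIs. In anterior streak-like nuclei 2 of the 14 were higher (6.63% of all genes were) and 12 were at least 2-fold lower (median -1.59 against -0.05). The share of all genes that were lower was not counted. Sox17 and Foxa2 of this list are markers of that class. Of 12 heart and lateral mesoderm partners of GATA4, GATA5 and GATA6, 10 were higher in extraembryonic mesoderm-like (8.24% of all genes; median 2.11 against -0.04), 7 in embryonic mesoderm-like (7.80%; 1.44 against -0.05) and 5 in haemato-endothelial-like nuclei (8.47%; 0.54 against -0.09). Foxf1, a forkhead factor of the allantois and yolk sac and a marker of the class, led in extraembryonic mesoderm-like nuclei at 20.9-fold (17.7 to 24.8). Nkx2-5, the cardiac homeobox gene, had 1 UMI there. Hand1, Tbx20 and Bmp4 of this list mark that class too. Bmp4 led in extraembryonic ectoderm-like nuclei at 10.9-fold (10.3 to 11.5), with 2 of 12 higher (7.63% of all genes) and 9 lower. Hand1 led in ectoplacental cone-like nuclei at 7.41-fold (6.62 to 8.28), with 1 higher (8.48%) and 10 lower.

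Of 14 GATA cofactors and complex partners, 6 were higher in haemato-endothelial-like nuclei (8.47% of all genes; median 0.42 against -0.09), namely Tal1, Lmo2, Zfpm2, Lyl1, Runx1 and Cbfa2t3; Tal1, Lmo2 and Runx1 are markers of the class. These names in haemato-endothelial-like nuclei were chosen after their values were seen. TAL1 and LMO2 join GATA1 or GATA2 in a DNA-bound complex in blood progenitors. Zfpm2 (FOG2), the usual partner of GATA4, stood at 113.7 CPM against 10.9 in all other nuclei, or 10.4-fold, and Zfpm1 (FOG1), the partner of GATA1, at 1.51-fold (1.30 to 1.74). Cbfa2t3, a corepressor of that complex, led the list in ectoplacental cone-like nuclei at 7.25-fold (5.64 to 9.23), the class in which Gata1 and Gata2 were highest. Lyl1 had no UMI there, against 0.280 CPM in all other nuclei (fold interval 0 to 4.82). Cbfa2t3 led also in extraembryonic ectoderm-like nuclei at 7.52-fold (6.39 to 8.86), with Zfpm2 lowest at 0.0891-fold (0.0586 to 0.130).

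Of 12 genes bound by GATA1 and GATA2 in blood cells, only 7 had enough UMIs, and none of the 7 was higher in ectoplacental cone-like nuclei, which with 8.48% of all genes called is near the background. Klf1, a red cell factor, had no UMI there, against 0.546 CPM in all other nuclei (fold interval 0 to 2.41). In extraembryonic ectoderm-like nuclei Zfpm1 was the highest of this list at 2.76-fold (2.60 to 2.93) and Kit the lowest at 0.218-fold (0.176 to 0.267). Kit, a growth factor receptor, was the highest of the list in parietal endoderm-like nuclei, at 300.8 CPM or 15.5-fold (12.7 to 18.8). In ectoplacental cone-like nuclei the median log2 fold of the list was -0.92 against -0.19 over all genes.

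Promoter accessibility was read in 9 RNA-based classes. In these the haemato-endothelial-like class of 685 nuclei had no separate extraembryonic mesoderm-like counterpart. The promoter window covered 1000 bp ahead of each start and 100 bp behind it. For Gata4, whose strand was undecided, it covered 1000 bp on both sides. A promoter was called higher at a fold of at least 1.5. Among the 8 classes of at least 100 nuclei, 5 gene and class pairs were called. They were Gata1 in ectoplacental cone-like (1 of 6, against 15.3% of 21430 promoters) and extraembryonic ectoderm-like nuclei (1, against 6.82%), Gata4 in haemato-endothelial-like (1, against 5.87%) and visceral endoderm-like nuclei (1, against 7.64%), and Gata6 in embryonic mesoderm-like nuclei (1, against 5.57%). None was called in anterior streak-like (5.06%), primitive streak-like (5.26%) or epiblast-like nuclei (15.3%). Gata6 in anterior streak-like nuclei fell just short at 1.49-fold (1.34 to 1.66) and passed at 1.51-fold with resolution 0.5. With doublet calls kept, 3 pairs were called instead of 5, and the Gata4 promoter in visceral endoderm-like nuclei fell short at 1.41-fold. It stood at 1.27-fold with a window of 2000 bp on both sides. In the accessibility-based classes the Gata4 promoter was 1.22-fold higher in haemato-endothelial-like nuclei, short of a call, and 1.74-fold in extraembryonic mesoderm-like nuclei. There the Gata1 promoter passed the call in haemato-endothelial-like nuclei at 1.67-fold (0.921 to 2.80), against 0.971-fold in the RNA-based class.

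The Gata1 promoter peak (chromosome X, 7967586 to 7968431) was weak everywhere, at 6.83 CPM in ectoplacental cone-like and 5.61 in extraembryonic ectoderm-like nuclei against 0.952 to 2.32 in the 6 other classes. Its folds were 2.94 (1.59 to 5.02) on 14 fragments and 2.76 (2.06 to 3.64) on 65. The Gata1 promoter was thus highest in the 2 named classes with the most Gata1 RNA. An unnamed RNA cluster of 516 nuclei, with 10.7 CPM of Gata1 RNA, held 3.89 CPM at this peak. Its fold was 1.67 (1.01 to 2.64), past the call. Another of 764 nuclei held 4.43 CPM on 7 fragments. In the accessibility-based classes the Fzd5 and Sfrp5 cluster stood at 1.97-fold (1.19 to 3.11).

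Gata2 and Gata3 differed from this, since their promoters were open in every class. Gata2 ranged from 37.5 CPM in embryonic mesoderm-like to 60.04 in ectoplacental cone-like nuclei, a 1.60-fold range. Its RNA in the same RNA-based classes ran from 1.28 CPM in epiblast-like to 140.9 in ectoplacental cone-like nuclei. Its 2 peaks differed. The peak from 88193634 to 88194501, which holds the first Gata2 stretch shown, was highest in epiblast-like nuclei at 16.7 CPM (1.49-fold, 1.36 to 1.64). It was 0.733-fold in visceral endoderm-like nuclei. The peak from 88198164 to 88199033 was highest in ectoplacental cone-like nuclei at 45.5 CPM (1.36-fold, 1.08 to 1.70). It was 1.01-fold in epiblast-like and 1.18-fold in visceral endoderm-like nuclei. Gata3 ranged from 44.4 in visceral endoderm-like to 68.3 CPM in haemato-endothelial-like nuclei among the 8 classes. In the accessibility-based classes it stood at 72.5 CPM in extraembryonic mesoderm-like and 66.1 in haemato-endothelial-like nuclei. Of the 2 Gata3 peaks, the one from 9878204 to 9878939 varied more by itself, from 11.7 CPM in visceral endoderm-like nuclei (0.597-fold) to 27.4 in haemato-endothelial-like nuclei (1.52-fold, 1.29 to 1.77).

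Gata4, Gata5 and Gata6 shared low promoter accessibility in the trophoblast-like classes. Gata4 stood at 64.0 CPM in visceral endoderm-like and 63.6 in haemato-endothelial-like nuclei, 51.98 in embryonic mesoderm-like and 37.7 in epiblast-like nuclei, but 14.8 in extraembryonic ectoderm-like and 9.11 in ectoplacental cone-like nuclei. Gata6 stood at 49.4 in anterior streak-like, 49.3 in embryonic mesoderm-like, 40.7 in primitive streak-like, 39.5 in haemato-endothelial-like, 35.6 in visceral endoderm-like and 30.1 in epiblast-like nuclei, against 11.5 and 7.40 in the 2 trophoblast-like classes. For Gata5 the same 2 classes held 8.93 and 2.85 CPM, and the other 6 between 18.9 and 25.2. In epiblast-like nuclei all 3 promoters were thus open although little of their RNA was found.

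The 2 promoter peaks of Gata4 at its upper start differed. The peak from 63245031 to 63245759 stood at 26.9 CPM in epiblast-like, 26.3 in embryonic mesoderm-like and 38.8 in visceral endoderm-like nuclei. The neighbouring peak from 63245882 to 63246411 stood at 10.8 in epiblast-like nuclei but 25.7 in embryonic mesoderm-like, 25.7 in haemato-endothelial-like and 25.2 in visceral endoderm-like nuclei. Embryonic mesoderm-like nuclei were 1.98-fold (1.78 to 2.21) over all others at the second peak and 0.943-fold (0.848 to 1.05) at the first.

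**Figure D2:**
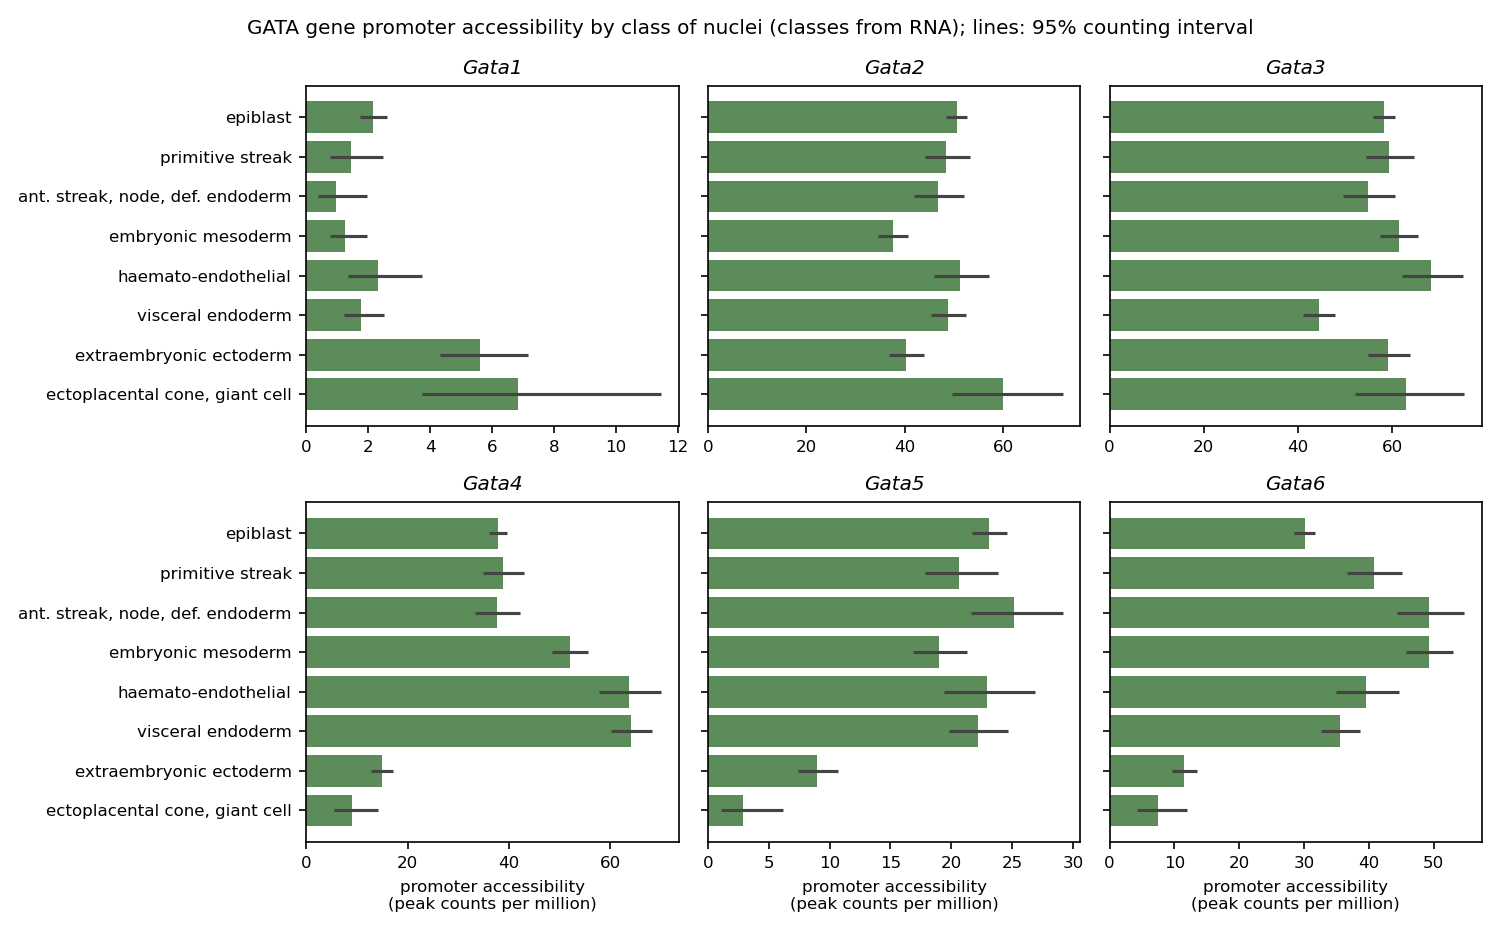
Promoter accessibility (CPM of peak counts, horizontal axis from 0, its own range in each panel) of each GATA gene in the 8 RNA-based classes of at least 100 nuclei; bars are class sums and lines 95% counting intervals. Gata2 and Gata3 are open in every class, Gata1 is weak and highest in both trophoblast-like classes, and Gata4, Gata5 and Gata6 are low in those 2 classes.

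A distal peak was called at a fold of at least 3 with at least 20 fragments. Of the 120 distal peaks, 57 were called in at least 1 of the 8 classes, where 37.8% of 206934 distal peaks were. By class, 15 were called in extraembryonic ectoderm-like nuclei (background 7.75%), 14 in visceral endoderm-like (9.56%), 11 in ectoplacental cone-like (5.56%), 10 in haemato-endothelial-like (4.55%), 8 in anterior streak-like (4.58%), 6 in embryonic mesoderm-like (5.08%), 1 in primitive streak-like (0.537%) and 1 in epiblast-like nuclei (4.70%). Epiblast-like nuclei, the largest class, thus had 1 called peak. By gene, Gata1 had 8 of 24 called, Gata2 11 of 18, Gata3 9 of 19, Gata4 12 of 28, Gata5 8 of 16 and Gata6 9 of 15. Of these regions 20 of 28 lay inside the Gata4 gene and none inside Gata5. A peak near a gene was not tested for acting on it.

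**Figure D3:**
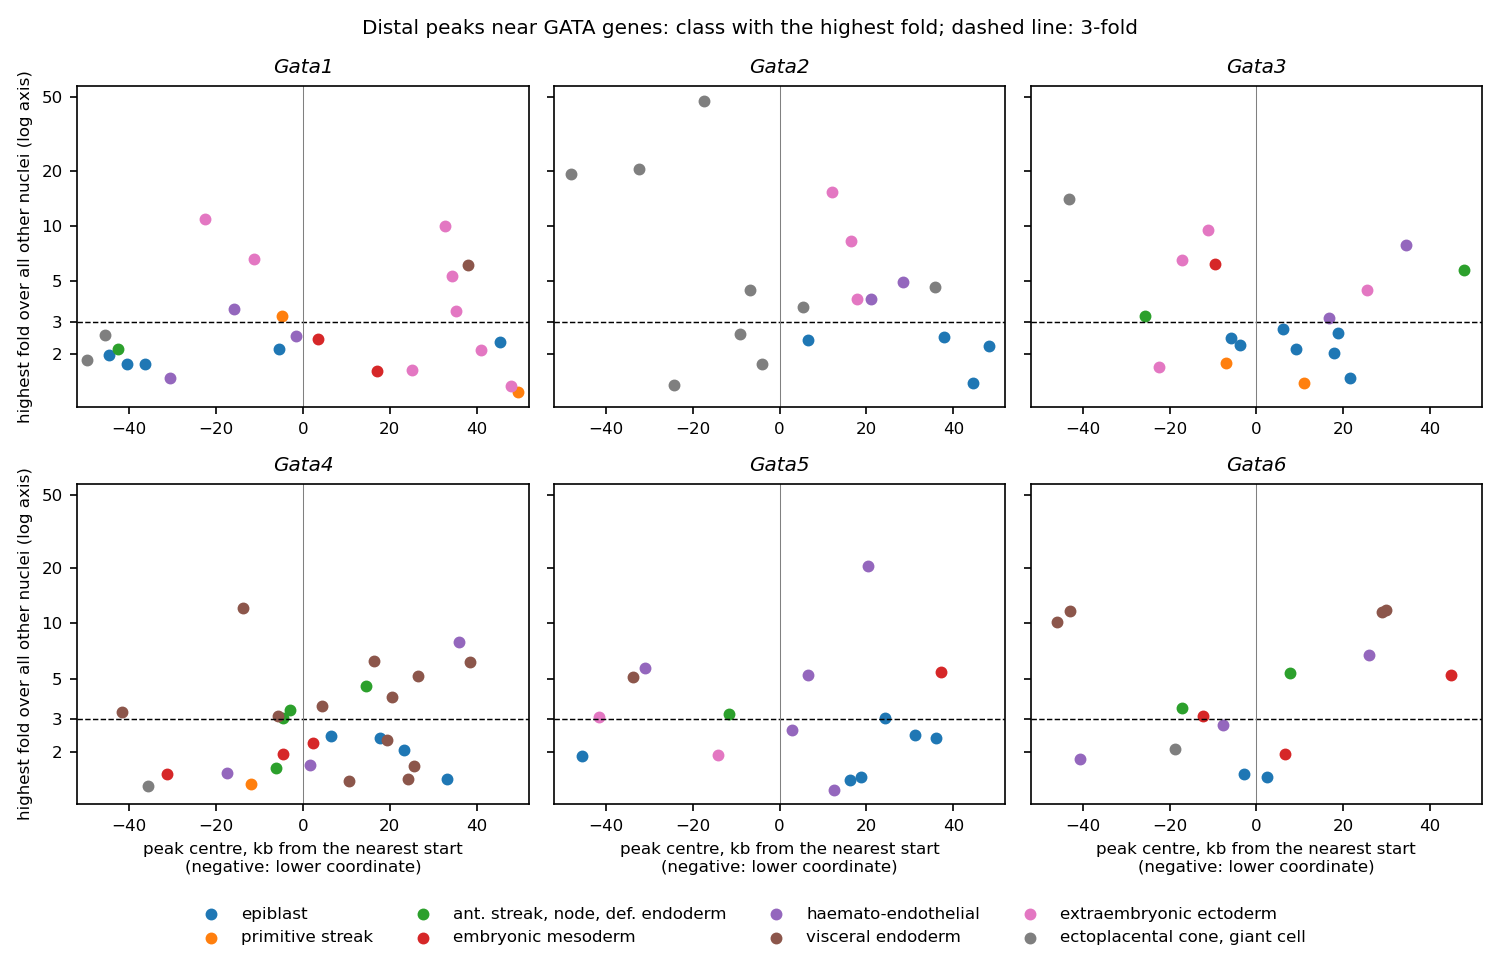
Distal peaks within 50 kb of each GATA gene; horizontal axis, kb from the nearest start (negative towards lower coordinates); vertical axis (log), the fold in the class where it is highest, coloured by class, with a dashed line at 3-fold. Gata2 has ectoplacental cone-like peaks on the lower side up to 48.1-fold, Gata4 and Gata6 have mostly visceral endoderm-like peaks among their highest, and Gata5 has 1 haemato-endothelial-like peak at 20.5-fold.

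Gata2 had the most class-bound peak of all 120. At chr6:88176014-88176892, 17438 bp from the nearest start towards lower coordinates, ectoplacental cone-like nuclei held 47.5 CPM against 0.989 in all others, or 48.1-fold (35.8 to 64.2). Further out on the same side, chr6:88160988-88161859 (32468 bp) was 20.3-fold higher (12.8 to 31.2) there. Both lie within the RefSeq gene Gm38708, which had 10 UMIs in all. On the other side, 11987 bp away, a peak at chr6:88209956-88210686 was highest in extraembryonic ectoderm-like nuclei (21.3 against 1.39 CPM, 15.3-fold), a class with little Gata2 RNA. Haemato-endothelial-like nuclei had their highest Gata2 peak elsewhere again, at chr6:88226224-88227136 (28346 bp), with 55.1 against 11.1 CPM, or 4.97-fold (4.40 to 5.61). The peak at 17438 bp had 0.626 CPM in the haemato-endothelial-like class from accessibility. The 2 classes rich in Gata2 RNA thus differed at the region 17438 bp away. For the region at 28346 bp no ectoplacental cone-like value is given here, so a difference between the 2 classes there is not shown. Its value is from the RNA-based haemato-endothelial-like class, which had no separate extraembryonic mesoderm-like counterpart, and no accessibility-based value is given. The regions at 11987 and 28346 bp were chosen after their values were seen.

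Gata1's highest peaks were both extraembryonic ectoderm-like: chrX:7944994-7945878, inside Hdac6 and 2453 bp from its start, at 11.1 against 1.02 CPM (10.8-fold, 8.39 to 14.0), and chrX:8000279-8001051, 32755 bp away, at 10.01-fold (7.34 to 13.7). For Gata3, chr2:9834909-9835763 was highest in ectoplacental cone-like nuclei at 14.0-fold (7.58 to 24.3) on 16 fragments. Inside the gene itself, chr2:9867087-9868014 was 9.47-fold higher (7.96 to 11.3) in extraembryonic ectoderm-like nuclei, at 22.4 against 2.37 CPM. Both Gata1 peaks and the peak inside Gata3 were higher in extraembryonic ectoderm-like nuclei but were not called in ectoplacental cone-like nuclei, where, on few fragments, the folds were 0.842 and 1.20 for Gata1 and 0.519 for Gata3. Summed distal accessibility in ectoplacental cone-like nuclei was 1.05-fold for Gata1 and 0.658-fold for Gata3, although RNA of both genes was high there. For Gata1 the sum was highest in the unnamed RNA cluster of 516 nuclei, at 151.8 CPM against 135.4 in extraembryonic ectoderm-like nuclei.

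The highest Gata4 peak, chr14:63230963-63231861, lies inside the gene between its 2 outer starts and held 30.4 CPM in visceral endoderm-like nuclei against 2.51 in all others, or 12.1-fold (10.4 to 14.1). In the accessibility-based classes the same peak was 7.48-fold higher there and 9.10-fold in the unnamed Scube2, Epas1 and Pitx1 cluster, which was the unnamed cluster highest in Gata4 RNA. The next by rule, chr14:63280683-63281629, was highest in haemato-endothelial-like nuclei at 7.87-fold (4.83 to 12.5) on 27 fragments, and in the accessibility-based classes in extraembryonic mesoderm-like nuclei at 7.36-fold. At resolution 0.5 its haemato-endothelial-like fold was 2.73, short of a call, and with doublet calls kept the leading peak was 4.67-fold higher in visceral endoderm-like nuclei. No distal Gata4 peak was called in embryonic mesoderm-like nuclei, which held 322.1 CPM of its RNA in the same RNA-based class.

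The class with the highest fold differed between Gata6 regions. Visceral endoderm-like nuclei led at 11081930 to 11082688 on chromosome 18, inside the gene and 29839 bp from the start (18.7 against 1.58 CPM, 11.8-fold, 9.72 to 14.4), and at 11009066 to 11009956 on the other side (20.6 against 1.77 CPM, 11.7-fold, 9.71 to 14.1). Embryonic mesoderm-like nuclei led 44882 bp from the start (19.4 against 3.73 CPM, 5.21-fold), haemato-endothelial-like nuclei 25864 bp away (38.3 against 5.66 CPM, 6.76-fold) and anterior streak-like nuclei 7738 bp away (10.7 against 2.0 CPM, 5.35-fold). These last 3 were chosen after their values were seen. The haemato-endothelial-like class here is the RNA-based one, which had no separate extraembryonic mesoderm-like counterpart, and no accessibility-based value is given. With doublet calls kept, the 2 visceral endoderm-like folds were 6.17 and 4.82. Visceral endoderm-like nuclei thus had the Gata6 regions of highest fold among the named classes while holding 70.6 CPM of Gata6 RNA in the same RNA-based classes, less than embryonic mesoderm-like (271.3) and anterior streak-like nuclei (317.3).

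Gata5 had a strongly class-bound distal peak despite its few UMIs. At chr2:180354555-180355489, 20323 bp from the start, haemato-endothelial-like nuclei held 43.3 CPM against 2.11 in all others, or 20.5-fold (17.2 to 24.4). In the accessibility-based classes, which separate the 2 mesoderm lineages, it stood at 42.6 CPM in extraembryonic mesoderm-like, 38.5 in haemato-endothelial-like and 14.0 in embryonic mesoderm-like nuclei, and at 0.830 in visceral endoderm-like nuclei. At resolution 0.5 its haemato-endothelial-like fold was 11.2. Extraembryonic mesoderm-like nuclei also held 5 of the 18 Gata5 UMIs. A further peak, chr2:180303179-180304037, was 5.73-fold higher (3.95 to 8.17) in haemato-endothelial-like nuclei. It lies closer to the start of Rbbp8nl than to that of Gata5, and its fold was 3.24 at resolution 2.

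RNA and accessibility were set side by side over the 12 RNA-based classes and clusters of at least 100 nuclei, which share both libraries and their depth. Spearman coefficients of RNA with summed distal accessibility were 0.965 for Gata4, 0.790 for Gata6, 0.483 for Gata1, 0.343 for Gata3, 0.336 for Gata2 and 0.299 for Gata5. With promoter accessibility they were 0.846, 0.811, 0.594, 0.629, 0.161 and 0.142 in the same order. Gata4 distal accessibility ran from 117.0 CPM in extraembryonic ectoderm-like nuclei to 334.6 in an unnamed RNA cluster, and Gata2 from 64.0 in visceral endoderm-like to 255.5 in ectoplacental cone-like nuclei. Pearson coefficients ordered the genes differently: with distal accessibility they were 0.875 for Gata4, 0.861 for Gata6, 0.725 for Gata5, 0.644 for Gata2, 0.611 for Gata1 and 0.441 for Gata3. With promoter accessibility they were 0.832 for Gata6, 0.791 for Gata4, 0.774 for Gata1, 0.595 for Gata3, 0.522 for Gata2 and 0.252 for Gata5. Differences between the genes were not tested.

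**Figure D4:**
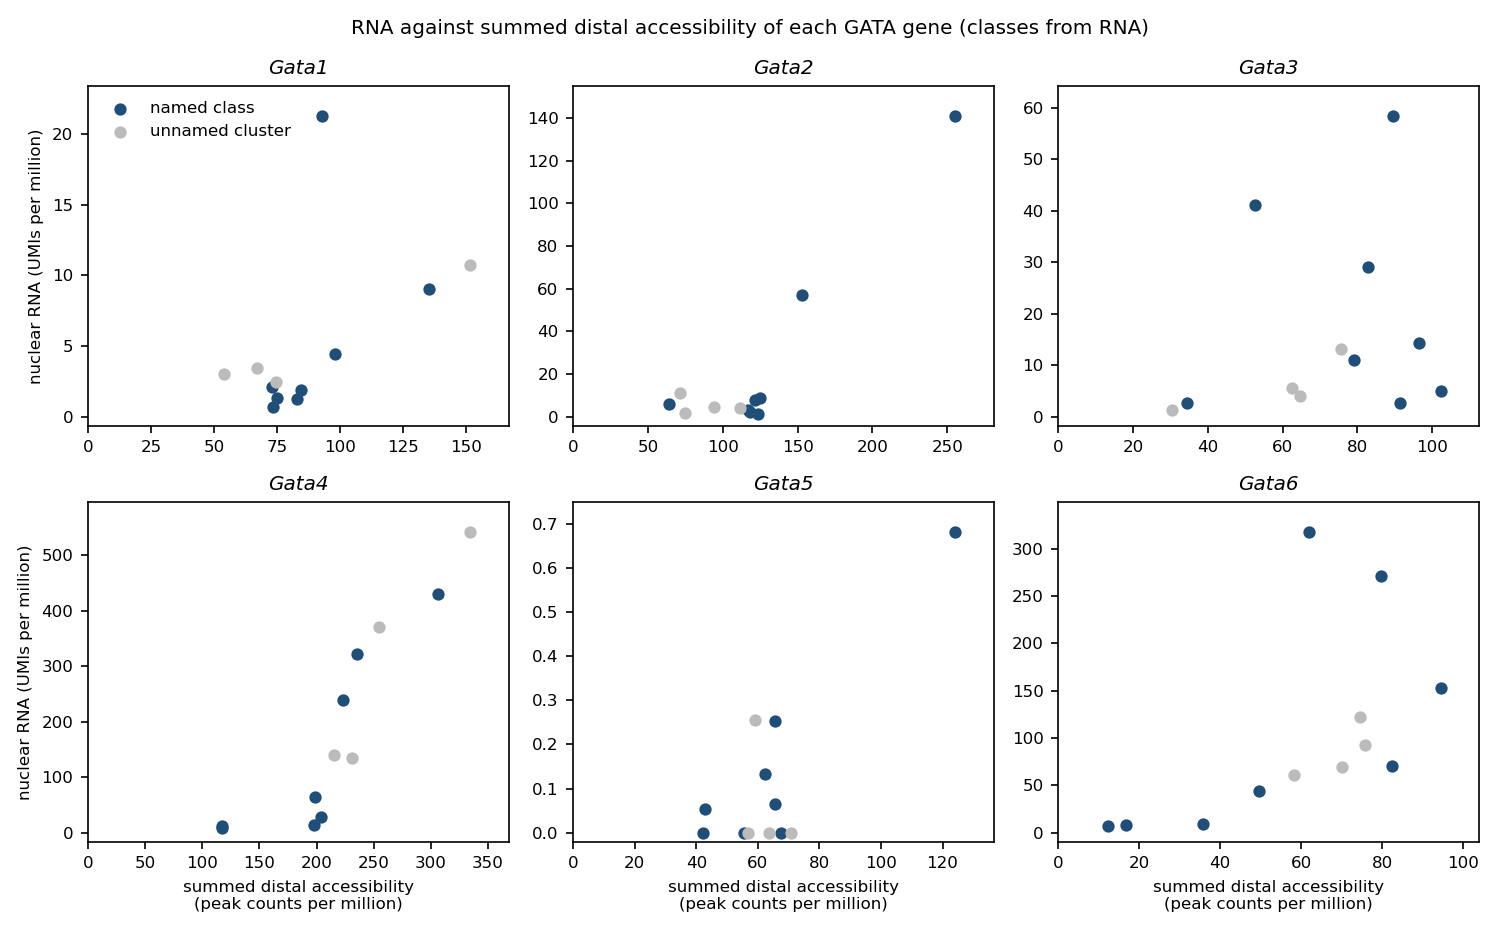
Nuclear RNA (CPM, vertical axis) against summed distal accessibility (CPM of peak counts, horizontal axis) of each GATA gene; each point is a named class (blue) or an unnamed cluster (grey) of at least 100 nuclei. Points rise together for Gata4. For Gata2, most classes lie at low RNA over a wide range of accessibility and ectoplacental cone-like nuclei stand alone at 255.5 CPM of peak counts.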

How the data were processed

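Nuclear RNA and chromatin accessibility came from 1 library each. The authors deposited whole-number counts, UMI counts per gene and counts per peak, in 1 matrix of 15341 barcodes made with Cell Ranger ARC 2.0.0 on mm10, per the submitters' processing notes. Totals were 182201512 UMIs and 273131304 peak counts. Since 86.4% of nonzero peak values were even, intervals on accessibility used fragments (count divided by 2, rounded up).

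Nuclei were kept with at least 1000 UMIs from 500 genes, at least 1000 peak counts and a mitochondrial share of up to 20%. Then 1100 doublet calls (Scrublet in scanpy 1.11.5, expected rate 0.1) were removed. Each assay was clustered apart (30 components, 15 neighbours, leidenalg 0.10.2, resolution 1). Clusters were named from 15 marker lists with a scoring rule set after the data were seen. Distal means at no promoter and within 50000 bp. A peak call needed 20 fragments in all, and a named distal peak 50 fragments. Genes or regions outside the naming rule below were chosen after their values were seen. Fold intervals were exact, from Poisson counts, and shares exact binomial (Clopper-Pearson). A count of 0 allows 3 counts.

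All 6 genes, the 5 genes most like each by Pearson coefficient, the highest and lowest member of each list in the class where a GATA gene was highest, and the 2 highest distal peaks per gene were named by rule. Members and lists were chosen with earlier results of these data known. The fold calculation was run on simulated Poisson counts, the model that its intervals assume. Such a run can check the arithmetic but not the spread between nuclei or embryos. Alternatives covered resolution, doublets, depth, the clustering assay, windows, fragments and thresholds. For the blood gene list, 1 member is not reported here.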

Additional observations from a re-analysis of the deposited data

How the results depend on the processing

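With 1 library per assay, no alternative carries a test, and every value rests on counting error alone. The fold of each GATA gene in its highest class of at least 100 nuclei (no RNA fold for Gata5) kept its direction. This held for each peak named by rule too, and covers only the alternatives in which the class was named. Gata4 RNA in visceral endoderm-like nuclei had 5 settings, the main one included, against 6 for the other genes. Promoters and peaks in ectoplacental cone-like nuclei had 7, against 8 in the other classes. With the clustering assay exchanged, the order of Gata6 in embryonic mesoderm-like and anterior streak-like nuclei turned (271.3 and 317.3 CPM). The Gata1 promoter in haemato-endothelial-like nuclei moved from 0.971-fold (0.558 to 1.58) to 1.67-fold (0.921 to 2.80), and both intervals include 1. With doublet calls kept, 3 promoter pairs were called in place of 5. With peaks within 100000 bp, 103 of 205 distal peaks were called in place of 57 of 120. The cause of these shifts was not tested, beyond the wider window holding more peaks. Among values named for single genes or peaks, 113 alternatives lay within the counting interval and 38 did not. The fold of Gata2 RNA in ectoplacental cone-like nuclei ran from 13.1 to 23.1, and was lowest with the stricter depth limit of 2000. The leading Gata5 distal peak ran from 11.2 to 20.5-fold, the leading Gata4 peak from 4.67 to 15.1-fold, the other Gata4 peak from 2.73 to 8.16-fold, and the 2 Gata6 peaks from 6.17 to 13.3-fold and from 4.82 to 13.7-fold. The 2 samples are different assays of the same nuclei, which pairs RNA with accessibility but gives no replicate pairs to analyse. Depth limits what Gata5, with 18 UMIs, can show.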
